A study of Mus musculus with 13 samples.

Results

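The mouse mitochondrial genome holds 13 protein-coding genes, and 7 of them were described here across immune cells of the thymus and of other mouse samples: mt-Nd1, mt-Nd2, mt-Nd4, mt-Nd5, mt-Nd6, mt-Cytb and mt-Co1. They were chosen by gene name in both gene lists of the series, each of 57010 genes, as the mitochondrial mRNAs with usable counts. Each of the 7 had between 2242 and 250719 unique molecular identifiers (UMIs, counted molecules) in each set of cells, whereas the other 6 protein-coding genes had at most 13 UMIs in any set. Their abundance is part of that choice and is given as a description. The rule itself used no difference between cell classes, but it was set with earlier results of these data known.

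The study compared single-cell RNA-seq kits on the thymus, and the Parse split-pool libraries were used here, in which fixed cells receive a barcode in a first-round well and further barcodes in later pools. The Parse WT library had 48 wells and 9 sublibraries. Its thymic cells came from 4 lobes, named tenxP_1 to tenxP_4, of 2 female C57BL/6N mice aged 2 months, in 8 wells (C7 to C12, D1 and D2). The Parse Mini library, of 12 wells and 2 sublibraries, held 4 lobes named T-1-A, T-1-B, T-2-A and T-2-B from another 2 mice of the same strain, sex and age, with the treatment label control. Lobes were mashed, digested with collagenase/dispase and DNase I and fixed. Which lobes share a mouse is not given by the labels, so p-values over lobes are too small as statements about mice. The other 40 wells of Parse WT held 16 samples that the labels place only under thymus and spleen and under control and chronic stress, without saying which is which, so these samples entered no test. The study describes them as non-thymic and unrelated to its comparison. The 10x libraries were not analysed here.

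The genes lie on a circular genome of 2 strands that is transcribed into long precursors, from which tRNAs are cut out and mRNAs and rRNAs released. Their proteins are core subunits of the respiratory chain. The genes mt-Nd1, mt-Nd2, mt-Nd4, mt-Nd5 and mt-Nd6 encode membrane subunits of complex I, which oxidises NADH. mt-Cytb encodes cytochrome b of complex III, and mt-Co1 encodes the catalytic subunit of complex IV, which passes electrons to oxygen. All but mt-Nd6 are read from the same strand, and mt-Nd6 is the only mRNA of the opposite one. In thymocytes respiration is known to vary with stage, with proliferating early cells more active than resting ones.

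In GRCm38 the 6 plus-strand genes lie on chromosome M at 2751 to 3707 (mt-Nd1), 3914 to 4951 (mt-Nd2), 5328 to 6872 (mt-Co1), 10167 to 11544 (mt-Nd4), 11742 to 13565 (mt-Nd5) and 14145 to 15288 (mt-Cytb). mt-Nd6 lies on the minus strand at 13552 to 14070. Each is a single exon with almost no untranslated sequence. The 3' ends of mt-Nd5 and mt-Nd6 overlap by 14 bases on opposite strands, shown in capitals below because reads from this stretch could fall to either gene unless strand was used in counting, which no source read here states. Both stretches are written 5' to 3' on the strand of their gene, from the GENCODE transcripts of GRCm38.

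mt-Nd5, last 60 bases, chrM:13506-13565, plus strand: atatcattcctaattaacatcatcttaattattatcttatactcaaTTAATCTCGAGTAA
mt-Nd6, last 60 bases, chrM:13552-13611, minus strand: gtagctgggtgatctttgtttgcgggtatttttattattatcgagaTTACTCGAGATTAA

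Copies of mitochondrial DNA in the nuclear genome can leave a read fitting several places. Their part in the counts was not tested. Of all 50-base words in each gene, none in mt-Nd1, mt-Nd6 or mt-Cytb stood in an annotated nuclear transcript, against 8.19% in mt-Nd2, 7.61% in mt-Nd5, 51.1% in mt-Co1 and 62.2% in mt-Nd4. The first 876 bases of mt-Nd4, 63.6% of the gene, were identical to the nuclear pseudogene Gm28439 (chr1:24611535-24612410, minus strand), and the last 479 bases of mt-Co1, 31.0% of the gene, were identical to part of Gm29216 (chr1:24615706-24616197, minus strand). The edges of these shared stretches are shown with the bases shared with that pseudogene in capitals. For mt-Co1 this is only the transcript that shares most with it: Gm29216 held 28.7% of its words, and the rest of the 51.1% stood in other nuclear transcripts.

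mt-Nd4, end of the shared part, chrM:11013-11072, plus strand: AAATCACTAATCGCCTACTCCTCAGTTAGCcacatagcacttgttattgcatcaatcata
mt-Co1, start of the shared part, chrM:6364-6423, plus strand: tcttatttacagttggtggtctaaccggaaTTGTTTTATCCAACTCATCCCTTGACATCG

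The nuclear copies themselves had few UMIs. Gm28439 had 40 UMIs in the WT thymic cells, 10 in Mini and 81 in the other wells, and Gm29216 had 39, 24 and 97. Of the 6 genes with at most 13 UMIs, 5 shared 98.0% to 100% of their words with nuclear transcripts. The exception was mt-Atp8, with 0% shared and at most 2 UMIs; copies in the genome between annotated genes were not analysed here. No source read here states how reads that fit several places were treated. The 22 mitochondrial tRNA genes in the gene list had 0 UMIs in kept cells.

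**Figure D1:**
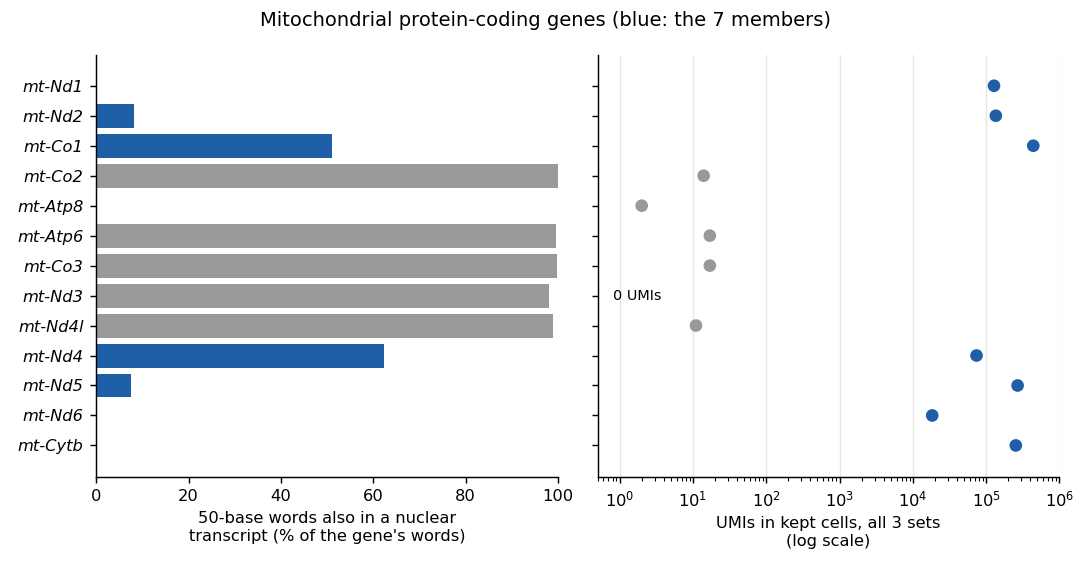
Left, the share of each gene's 50-base words that also stand in an annotated nuclear transcript (percent); right, UMIs in kept cells of all 3 sets (log axis), with the 7 members in blue and the other 6 protein-coding mitochondrial genes in grey. The blue points all lie above 10000 UMIs and the grey ones at 17 or fewer, and mt-Atp8 is the one grey gene with no shared word.

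A cell was kept if it had 500 to 25000 UMIs, of which no more than 15% were mitochondrial. It also needed at least 200 UMIs outside the rRNA genes named below. This left 39369 of 41838 WT thymic cells, 19273 of 20085 Mini cells and 81394 of 86786 cells of the other wells. Kept cells held 210962439, 85241733 and 355342854 UMIs, with medians of 3327, 2722 and 2936 per cell. Levels below are CPM, which are UMIs of a gene scaled to a common total of UMIs outside the 3 dominant rRNA genes Rn18s-rs5, mt-Rnr1 and mt-Rnr2. Of the Mini barcode strings, 460 (2.29%) also occurred in WT. Classes were named from marker genes after clustering without mitochondrial genes, and 11007, 4856 and 5510 cells stayed in unnamed clusters. No class known to lack mitochondria was at hand, so the level that free RNA gives was not measured.

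Compared per kilobase of transcript, the members spanned about 1 order of magnitude. In WT thymic lobes the median level per kilobase was 528 CPM for mt-Co1, 517 for mt-Cytb, 296 for mt-Nd5, 294 for mt-Nd2, 270 for mt-Nd1, 132 for mt-Nd4 and 49.9 for mt-Nd6. The Mini lobes gave 427, 441, 223, 196, 260, 86.7 and 47.0 for the same genes in that order. Over the whole gene, the ranges of mt-Cytb and mt-Co1 overlapped in each kit (399 to 622 and 465 to 701 in WT, 357 to 527 and 361 to 568 in Mini). mt-Nd6, the light-strand mRNA, was the lowest member in both thymic sets, whereas in the other wells mt-Nd6 (88.4) and mt-Nd4 (85.6) were nearly level. The count of a gene's 50-base words absent from annotated nuclear transcripts was also used in place of its length. That scale holds only if no UMI came from the shared words, which was not tested. On that scale mt-Co1 was first in both kits, with medians of 1117 in WT and 903 in Mini against 539.7 and 461 for mt-Cytb. A gene has fewer words than bases even where none is shared, as in mt-Cytb with 1095 words for 1144 bases. By word count the medians of mt-Nd4 became 362, 238 and 235 in WT thymic, Mini and other wells, and mt-Nd6 was then the lowest in all 3 sets (55.1, 51.9 and 97.6).

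Thymocytes pass from CD4- CD8- double-negative (DN) cells through proliferating (DP-P), resting (DP-R) and signalled (DP-S) CD4+ CD8+ double-positive cells to CD4 or CD8 single-positive (SP) cells. The question was whether the members differ between these stages. The DN-like cluster showed 8 of its 8 markers raised (Il2ra and Notch3 among them), DP-R-like clusters 6 or 7 of 7, the DP-S-like cluster 7 of 7, the SP-CD4-like cluster 6 of 7 and the SP-CD8-like cluster 4 of 7, so of these the last name rests on the fewest. DP-P-like cells were named from Mki67, Top2a, Cenpe, Kif11, Cd8a, Rag1 and Ptcra, with at least 3 of them raised. Cell-cycle genes such as Mki67 and Top2a could meet that rule without Cd8a or Rag1. The name therefore does not by itself show that these cells were double-positive. The DP-S-like class is 1 cluster. In 3 further clusters the DP-S markers also led, in 2 of them more strongly, but markers of another class stood among their leading genes or as high, and they stayed unnamed. Over all lobes their plus-strand levels were 3023, 2383 and 2521 CPM in WT and 2024, 1698 and 1913 in Mini, above the 2075 and 1455 of the DP-S-like cluster. DP-R-like cells were the largest class, with 15826 WT and 9059 Mini cells, and served as the reference.

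Of the 6 classes, the 6 plus-strand members together were lowest in DP-R-like and DP-S-like cells and highest in double-negative and CD8 single-positive cells. In DP-R-like cells of the WT lobes they summed to 1758, 2129, 2456 and 1658 CPM in tenxP_1 to tenxP_4. In DN-like cells of the same lobes the sums were 3187, 3740, 4342 and 2822. DN-like cells were thus above DP-R-like cells of every lobe, by 1.76 times on average (1.7 to 1.81). In the Mini lobes T-1-A, T-1-B, T-2-A and T-2-B the sums were 1906, 1347, 1344 and 1207 in DP-R-like cells and 3174, 2922, 2567 and 2794 in DN-like cells, a mean ratio of 2.00 (1.67 to 2.32). The groups did not overlap in either kit.

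Ordered by mean, the WT classes stood at 3523 ± 664 CPM for DN-like (SD, n = 4 lobes), 3505 ± 623 for SP-CD8-like, 2902 ± 578 for SP-CD4-like, 2798 ± 498 for DP-P-like, 2097 ± 363 for DP-S-like and 2000 ± 365 for DP-R-like cells. These SDs hold the differences between lobes, and the order is clearer within lobes. SP-CD8-like was above SP-CD4-like in 4 of 4 lobes and DP-P-like above DP-S-like in 4 of 4, whereas DN-like and SP-CD8-like split 2 to 2 and SP-CD4-like was above DP-P-like in 3 of 4. In Mini the order was DN-like (2864 ± 254), SP-CD8-like (2643 ± 242), DP-P-like (2537), SP-CD4-like (2169 ± 270), DP-S-like (1511 ± 364) and DP-R-like (1451 ± 311), each above the next in 4 of 4 lobes except the last pair, in 3 of 4. Proliferating and CD4 single-positive cells thus changed places between the kits.

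**Figure D2:**
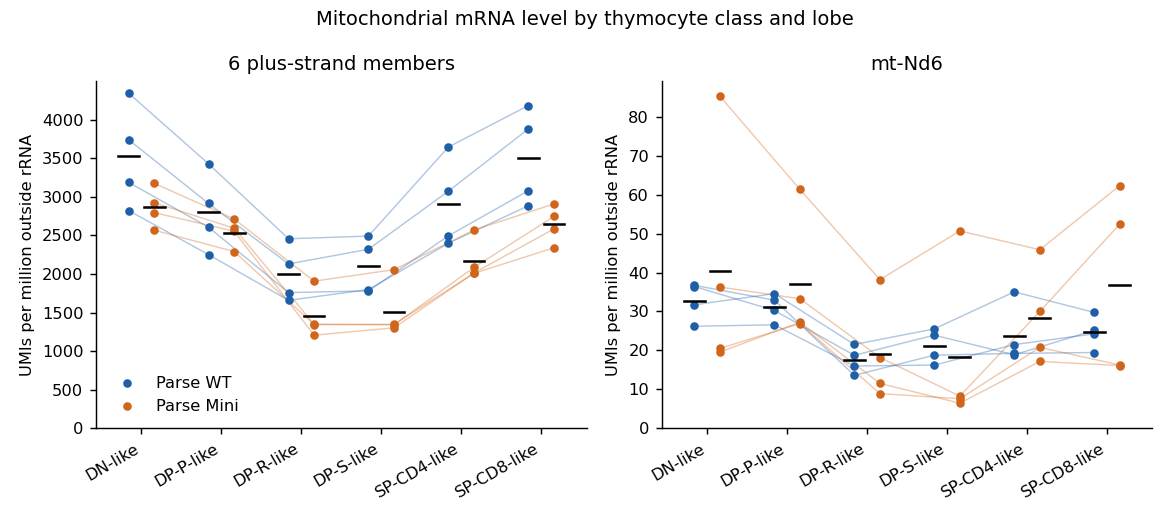
Level of the 6 plus-strand members together (left) and of mt-Nd6 (right) in 6 thymocyte classes, in CPM outside rRNA; each point is a lobe, thin lines join the classes of a lobe and black bars are means over 4 lobes. On the left all lines dip at DP-R-like and DP-S-like cells, and on the right T-1-A of Parse Mini lies above the other lobes in every class shown.

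All 7 members were tested in 1 edgeR quasi-likelihood fit per kit across all genes, on UMIs summed per class and lobe, with the lobe as a block and Benjamini-Hochberg adjusted p. All 7 were higher in DN-like than in DP-R-like cells in both kits, where 29.4% of 12506 genes tested were higher in WT and 28.2% of 11272 in Mini. All 7 were also higher in DP-P-like cells (background 26.7% in WT and 26.8% in Mini), in SP-CD4-like cells (20.7% and 20.1%) and in SP-CD8-like cells (19.7% and 18.7%). In DP-S-like cells 0 of 7 passed in either kit, where 3.13% of all genes in WT were higher and 2.75% lower (5.88% in either direction), and 3.54% and 3.8% in Mini (7.34%). Counted in either direction, 50.8% of genes in WT and 49% in Mini passed in DN-like cells, 50.7% and 52.4% in DP-P-like, 36.5% and 35.9% in SP-CD4-like and 34.6% and 33.5% in SP-CD8-like cells, so a call was common in these contrasts. The share of genes lower was 21.5% in WT and 20.8% in Mini in DN-like cells, 24% and 25.7% in DP-P-like, 15.8% in both in SP-CD4-like, and 15% and 14.8% in SP-CD8-like cells. Of these 0, 1 member in Mini (mt-Nd1, 0.21 on the log2 scale, unadjusted p = 0.0333 by edgeR) and none in WT had an unadjusted p under 0.05, and DESeq2 also called 0. With another clustering resolution, which redraws the DP-S-like class, 5 members in WT and 4 in Mini passed as higher, where 17.8% and 19.8% of all genes were higher in that fit, so the lack of calls rests on how that class is drawn. The median log2 fold change over the members in DN-like cells was 0.77 in WT and 1.00 in Mini, against 0.06 and 0.04 over all genes tested.

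Among the complex I mRNAs, mt-Nd5 differed most between stages in WT. Its level in DP-R-like cells was 264, 378, 363 and 246 CPM in the 4 WT lobes and 279, 218, 222 and 172 in the Mini lobes, and in DN-like cells it was 652, 832, 869 and 522 in WT and 573, 610, 518 and 527 in Mini. Every DN-like value lay above every DP-R-like value. The log2 fold change was 1.14 (SE 0.06, adjusted p = 1.56e-19) in WT and 1.24 (SE 0.06, adjusted p = 3.45e-29) in Mini. In DP-P-like cells mt-Nd5 was at 590, 692, 731 and 461 in WT and at 545, 572, 492 and 528 in Mini, log2 fold changes of 1.02 and 1.26, so its level in proliferating cells came close to that in DN-like cells.

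mt-Nd1 and mt-Nd2, the first mRNAs after the rRNA genes, rose by similar amounts. mt-Nd1 was at 161, 164, 252 and 120 CPM in DP-R-like cells of the WT lobes and at 328, 374, 542 and 246 in SP-CD8-like cells. mt-Nd2 was at 172, 232, 236 and 181 in the former and at 415, 490, 480 and 375 in the latter. Only the highest DP-R-like value of mt-Nd1, in tenxP_3, overlapped the SP-CD8-like range, and within each lobe the class difference had the same direction. Their log2 fold changes in SP-CD8-like cells were 1.07 (SE 0.08) and 1.08 (SE 0.07) in WT and 1.06 (SE 0.09) and 1.03 (SE 0.10) in Mini. In SP-CD4-like cells both rose less, by 0.80 and 0.70 on the log2 scale in WT and by 0.79 and 0.84 in Mini.

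mt-Nd4 changed least of the plus-strand members. In DP-R-like cells it was at 121, 176, 172 and 138 CPM in WT, and in DN-like cells at 194, 263, 267 and 194. The log2 fold change in DN-like cells was 0.52 in both kits. In DP-P-like cells of WT, with 125, 192, 193 and 145, it was 0.14 (SE 0.06, adjusted p = 0.0392 by edgeR). This call was lost without any 1 of the 4 lobes, at 0.08 to 0.15 (adjusted p = 0.0948 to 0.494). In Mini the DP-P-like value was 0.27 (adjusted p = 0.000993). Without T-1-B or T-2-B it no longer passed, at 0.18 in both (adjusted p = 0.0693 and 0.0798). mt-Nd4 is also the member with the largest part shared with nuclear copies; the part of this in its smaller change was not tested.

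Complex III and complex IV were each represented by 1 mRNA. mt-Cytb in WT was at 457, 496, 561 and 363 CPM in DP-R-like and at 741, 786, 885 and 580 in DN-like cells, above in every lobe, a log2 fold change of 0.61 (SE 0.06). mt-Co1 was at 584, 682, 871 and 610 in DP-R-like and at 960, 1046, 1349 and 914 in DN-like cells, a log2 fold change of 0.58 (SE 0.05). Both were also higher in Mini DN-like cells, by 0.79 and 0.67 on the log2 scale. In SP-CD4-like cells of WT they rose by 0.38 each, in DP-P-like cells they rose by only 0.30 and 0.38, and in SP-CD8-like cells by 0.66 and 0.60. The order in each of these 4 classes of both kits was therefore mt-Nd1, mt-Nd2 and mt-Nd5 above mt-Cytb and mt-Co1, and mt-Nd4 lowest of the plus-strand mRNAs, a description of the estimates, as differences between members were not tested except for mt-Nd6.

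**Figure D3:**
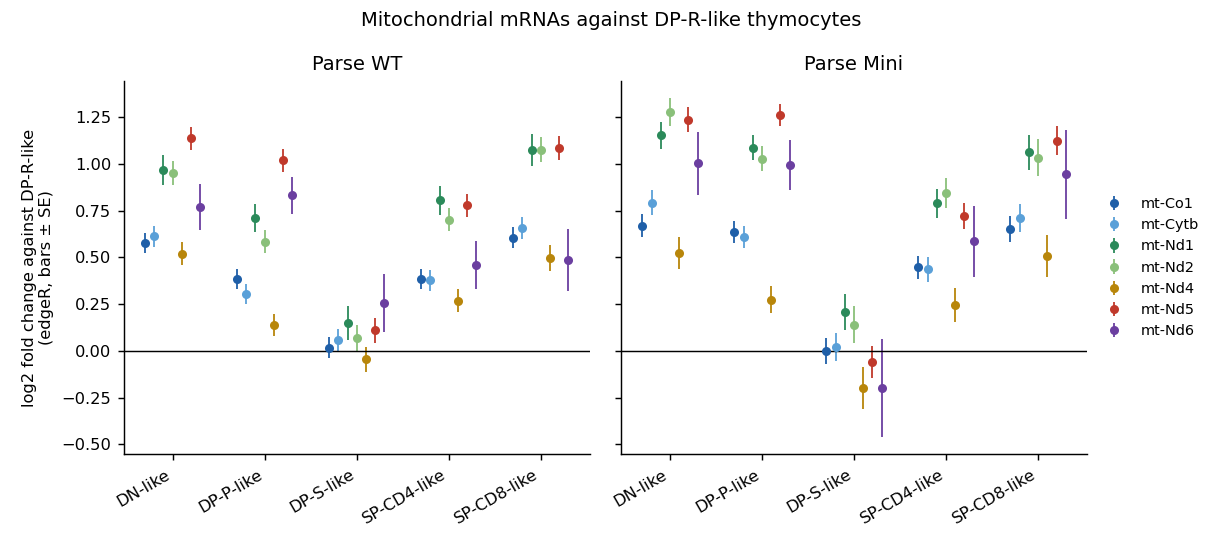
Log2 fold change of each member against DP-R-like thymocytes in Parse WT (left) and Parse Mini (right), from edgeR with bars of 1 SE. In DN-like, DP-P-like, SP-CD4-like and SP-CD8-like cells all points lie above 0, with mt-Nd4 between 0.14 and 0.52, and in DP-S-like cells the points scatter around 0.

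mt-Nd6, the only member of the other strand, was higher in the same 4 classes, with wider errors from its low counts. In DP-R-like cells it was at 13.6, 18.7, 16 and 21.5 CPM in WT and at 38.2, 11.5, 18.2 and 8.92 in Mini. In DP-P-like cells it was at 32.9, 30.3, 26.6 and 34.6 in WT and at 61.3, 27.2, 33.3 and 26.9 in Mini. The WT groups did not overlap, and in Mini the DP-R-like value of T-1-A was above the DP-P-like values of the other 3 lobes. The log2 fold change in DP-P-like cells was 0.83 (SE 0.10) in WT and 0.99 (SE 0.13) in Mini, and in DN-like cells 0.77 (SE 0.12) and 1.00 (SE 0.17).

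In single-positive cells each mt-Nd6 call was lost without at least 1 lobe. In SP-CD8-like cells of Mini the log2 fold change was 0.94 (adjusted p = 0.000795), and 0.63 (adjusted p = 0.101) without T-2-A. In SP-CD8-like cells of WT, with 19.5, 25.2, 24.3 and 29.8 CPM, the log2 fold change was 0.48 (SE 0.17, adjusted p = 0.0195), and it no longer passed without tenxP_1, tenxP_3 or tenxP_4, with folds of 0.43, 0.46 and 0.45 (adjusted p = 0.0599, 0.0867 and 0.132) or among cells of like depth (0.22, adjusted p = 0.588). In SP-CD4-like cells the values were 0.46 in WT and 0.59 in Mini. Without tenxP_4 the WT value was 0.23 (adjusted p = 0.383), and tenxP_4 was the highest of the 4 lobes there at 35 against 18.9 to 21.5. The Mini value no longer passed without T-2-A or T-2-B, at 0.53 and 0.42 (adjusted p = 0.0561 and 0.126).

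Whether the strands changed in proportion was tested with the ratio of mt-Nd6 to the other 6 members within each lobe. mt-Nd6 made up 0.892% of the 7 members' UMIs in DP-R-like cells of WT (mean of 4 lobes) and 1.22% in Mini. In DP-P-like cells the ratio was higher in 8 of 8 lobes over both kits, with a median difference of 0.25 on the log2 scale (0.10 to 0.71). The exact sign-flip permutation test gave a two-sided p = 0.0078125, the smallest that 8 lobes allow, and 0.0390625 adjusted over 5 classes. Lobes of 1 mouse are not independent, so this p is too small as a statement about mice. The other 4 classes split between the directions, with 4 of 8 lobes higher in DN-like, 5 in DP-S-like, 3 in SP-CD4-like and 2 in SP-CD8-like cells (exact permutation test, adjusted p = 0.703 to 0.867). Within WT the ratio was lower in 4 of 4 lobes in SP-CD8-like cells (median -0.31) and higher in 4 of 4 in DP-S-like cells (0.18), whereas in Mini it was higher in 2 of 4 and in 1 of 4. Whether the kits differ in this was not tested. With 4 lobes of 1 kit the smallest p is 0.125. Without any 1 lobe the adjusted p was 0.0781, the value when only 1 class reaches the smallest p that 7 lobes allow. Measured against mt-Nd1 alone, the difference in DP-P-like cells was 0.04 (exact permutation test, adjusted p = 0.336), so the shift depended on the mRNAs it was set against.

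First-round wells give repeated measurements within a kit. In wells with at least 20 cells of both classes, the sum of the 6 plus-strand members was higher than in DP-R-like cells in 8 of 8 WT wells and 12 of 12 Mini wells for each of DN-like, DP-P-like, SP-CD4-like and SP-CD8-like cells, with median ratios in WT of 1.79, 1.42, 1.45 and 1.72. For DP-S-like cells it was higher in 7 of 8 and 7 of 12 wells. The mt-Nd6 share in DP-P-like cells was higher in 8 of 8 WT and 9 of 12 Mini wells.

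Depth and other RNA moved with the classes. DN-like cells held 3.83 times the UMIs outside rRNA of DP-R-like cells per cell in WT and 3.80 times in Mini, and DP-P-like cells 3.27 and 3.20 times. DP-S-like cells held 2.07 and 1.89 times. The part of depth in the class differences was not tested beyond the depth window that follows. Among cells with 1500 to 5000 UMIs outside rRNA, an alternative added after the data were seen, all 7 members were still higher in DN-like cells (23.3% of all genes in WT and 14.3% in Mini) and in DP-P-like cells (25.9% and 24.8%), and the log2 fold change of mt-Nd5 in DN-like cells of WT was 1.46. In the single-positive classes of that window mt-Nd6 no longer passed in SP-CD4-like cells of Mini, with the log2 fold change as before (0.59, adjusted p = 0.114), and in SP-CD8-like cells of WT, with a smaller one (0.22, adjusted p = 0.588). Mitochondrial rRNA rose less than the mRNAs, by 1.16 times in DN-like and 1.04 times in DP-P-like cells of WT, and by 1.38 and 1.30 times in Mini. The number of mitochondrial rRNA UMIs per mRNA UMI was therefore lower, 22.2 against 33.7 in WT DN-like and DP-R-like cells and 23.7 against 34.4 in Mini, in 4 of 4 lobes of each kit.

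Rarer thymic classes lay on the same side. B-like cells had 1.68 times the plus-strand level of DP-R-like cells in WT (4 of 4 lobes), conventional dendritic (cDC)-like cells 1.54 times (3 of 3 lobes with at least 50 such cells), and innate-like and gamma-delta T-like cells 1.59 times (3 of 3) in WT and 1.72 times (4 of 4) in Mini. Neutrophil-like cells, in 2 WT lobes, had 1.33 times. DP-R-like and DP-S-like cells were thus the lowest of the named thymic classes in WT, and of those measured in all 4 lobes in Mini. B-like and cDC-like cells of Mini reached 50 cells only in T-1-A. The unnamed clusters in which DP-S markers led lay above the DP-S-like cluster, as given earlier, so its low level rests on which cluster kept the name.

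The members also differed between first-round wells of a sample. Within a sample the highest well exceeded the lowest by a median factor of 1.26 in WT thymic lobes and 1.41 in Mini lobes for the plus-strand sum, and by 2.60 and 3.15 for the mt-Nd6 share. In Mini, well A1 gave 5.46% mt-Nd6, well A2 1.43% and well A3 0.609%, although all 3 held the same lobe, T-1-A. In the other samples of WT the wells of the same names gave 15.0%, 5.11% and 2.93%. The plus-strand sum ran the other way, at 2099, 2523 and 3282 CPM in Mini wells A1, A2 and A3.

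The wells A1 to A12 of the 2 kits held different mice and different cells, yet deviated from their sample means together. Over these 12 wells the deviations of the mt-Nd6 share correlated with r = 0.975 (Spearman rho = 0.993), and those of the plus-strand sum with r = 0.976 (rho = 0.965). In 4 of 4 well groups the well with the highest mt-Nd6 share was the same in both kits. The points share the well name, and this correlation over wells is a description. The plus-strand sum was above that of DP-R-like cells within every single well for DN-like, DP-P-like, SP-CD4-like and SP-CD8-like cells. Single members did not always hold: in WT mt-Nd4 was higher in 5 of 8 wells in DP-P-like cells and mt-Nd6 in 7 of 8 in DN-like cells. The high mt-Nd6 level of T-1-A in all classes, 50.7 CPM in DP-S-like cells against 6.44 to 8.25 in the other 3 lobes, goes with its well A1, which had 121 CPM against 36.6 and 20.1 in A2 and A3.

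**Figure D4:**
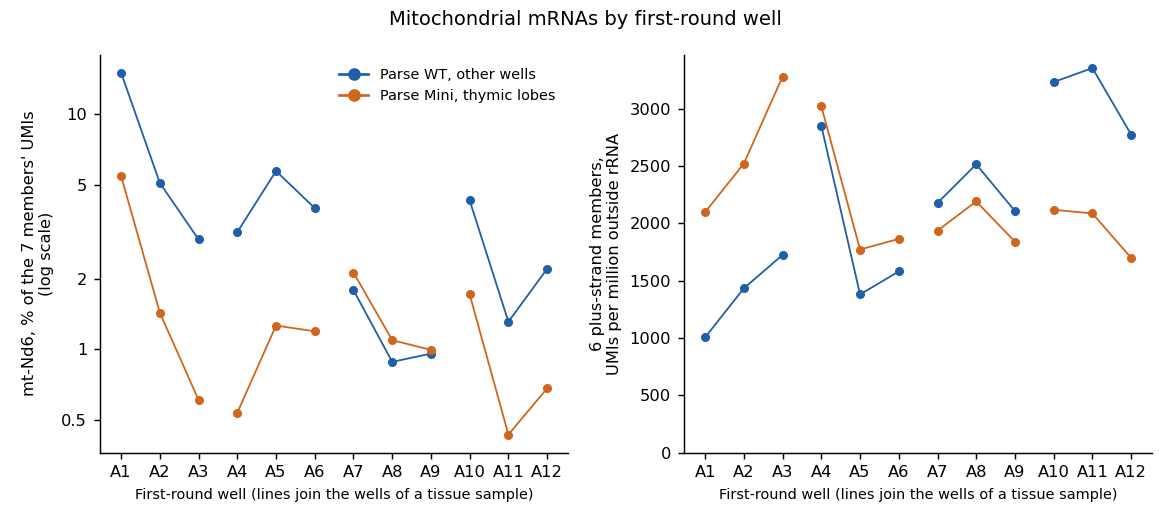
mt-Nd6 as a percentage of the 7 members' UMIs (left, log axis) and the level of the 6 plus-strand members in CPM outside rRNA (right) in first-round wells A1 to A12 of Parse WT (other samples) and Parse Mini (thymic lobes); lines join the wells of a tissue sample. Most steps between neighbouring wells have the same direction in both kits, as from 15.0% to 2.93% and from 5.46% to 0.609% between A1 and A3.

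Nuclear genes of the same pathway were read from 4 lists. Of genes for mitochondrial transcription and mtDNA maintenance, 6 of 15 tested were higher and 4 lower in DN-like cells of WT, and 5 higher and 4 lower in DP-P-like cells (over all genes, 29.4% were higher and 21.5% lower in DN-like cells, and 26.7% and 24% in DP-P-like cells). These counts lie near the shares over all genes. Tfb1m, which methylates mitochondrial rRNA, was higher by 1.78 and 1.84 on the log2 scale, and Mgme1, an exonuclease of mtDNA, by 1.77 and 2.74, whereas Polg, the mtDNA polymerase, was at -0.75 in DN-like cells. Of genes for mitochondrial RNA processing and decay, 7 of 20 were higher and 1 lower in DN-like cells and 7 higher and 0 lower in DP-P-like cells. The higher counts again lay near the share over all genes, whereas the lower counts lay below theirs (21.5% and 24%). Lrpprc, which with Slirp stabilises mitochondrial mRNAs, was higher by 0.57 in DN-like cells and Slirp by 1.21 in DP-P-like cells. Rexo2, a nuclease of short RNA, was higher by 0.87 and Fastkd2 by 1.13 in DN-like cells. In Mini these 2 lists gave 3 higher and 2 lower of 12, and 5 higher and 1 lower of 18, in DN-like cells, where 28.2% of all genes were higher and 20.8% lower.

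Of 6 tested regulators of mitochondrial biogenesis, 2 were higher and 3 lower in DN-like cells of WT, with Myc, a growth regulator, at 3.42, Pprc1, a coactivator, at 1.58, and the transcription factors Nrf1 and Gabpa at -0.30 and -0.28. Of the nuclear-encoded subunits of complexes I, III, IV and V (28 rows tested for 27 genes, 1 symbol having 2 rows), 5 were higher and 2 lower in DN-like cells of WT and 16 higher and 1 lower in DP-P-like cells, with list medians of 0.04 and 0.31 against 0.77 and 0.58 for the 7 members. Over all genes 29.4% were higher in DN-like and 26.7% in DP-P-like cells, so the subunits' higher count lay below that share in the former and above it in the latter. Atp5b, the catalytic subunit of ATP synthase, was higher by 0.47 in DN-like and 0.62 in DP-P-like cells. In Mini the counts were 2 higher and 2 lower in DN-like and 7 higher and 0 lower in DP-P-like cells, where 28.2% and 26.8% of all genes were higher. The summed level of these subunits was 1.09 and 1.15 times that of DP-R-like cells in DN-like and DP-P-like cells of WT, against 1.76 and 1.4 times for the plus-strand members.

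In the 16 other samples of Parse WT the classes were set against B-like cells of the same sample, the largest class with 38696 cells, of which 3 clusters took 98.7%, 99.4% and 96.3% of their cells from 1 sample each. Plasma-like cells, which secrete antibody and showed 10 of 10 markers raised, had a plus-strand level close to that of B-like cells, with a lowest, median and highest ratio of 0.700, 0.957 and 1.30 over 12 samples, higher in 5 of them. Their level ranged from 1813 to 4527 CPM with a median of 2570. They were above regulatory T-like cells in 11 of 12 samples and below CD8 T-like cells in 9 of 11. The median ratio of single members ran from 0.873 for mt-Nd5 (higher in 3 of 12 samples) to 1.06 for mt-Cytb (7 of 12), with mt-Co1 at 0.975 (5 of 12). Plasma-like cells held 1.53 times the UMIs outside rRNA per cell. Counted per cell, their plus-strand UMIs had a median ratio of 1.38, higher in 10 of 12 samples.

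Myeloid-like cells were lower. The plus-strand level was below that of B-like cells in 16 of 16 samples for monocyte-like cells, 11 of 11 for macrophage-like, 14 of 14 for neutrophil-like and 14 of 14 for cDC-like cells, with median ratios of 0.683, 0.729, 0.685 and 0.627. Their median levels were 1702, 1639, 1766 and 1499 CPM, against 2419 in B-like cells. These are levels per UMI outside rRNA, of which the 4 classes held 1.32, 1.6, 1.29 and 1.68 times as many per cell as B-like cells. Counted per cell, the plus-strand UMIs had median ratios of 0.85, 1.21, 0.891 and 0.984, higher than in B-like cells in 6 of 16, 7 of 11, 4 of 14 and 7 of 14 samples, so the lower level did not hold per cell in macrophage-like and cDC-like cells. In 13 of 16 samples every myeloid class lay below every lymphocyte class measured there (B-like, CD4 T-like, CD8 T-like, regulatory T-like and NK-like). Plasma-like cells were left out of this count. Plus-strand mRNAs of complex IV and complex I were both lower. In monocyte-like cells mt-Co1 was at 0.734 and mt-Nd5 at 0.643 of the B-like level, below in 16 of 16 samples for each.

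mt-Nd6 did not follow the same order. Its ratio to B-like cells had medians of 0.909 in monocyte-like, 1.10 in macrophage-like, 0.815 in neutrophil-like and 0.998 in cDC-like cells, higher in 7 of 16, 7 of 11, 5 of 14 and 7 of 14 samples. Over whole samples mt-Nd6 had only 0.0772 (YD_C_4) to 0.266 (CVS_S_4) UMIs per cell, so small classes held few of them. At such counts, in none of the 16 samples did all myeloid classes lie below all lymphocyte classes for mt-Nd6. The mt-Nd6 share of the 7 members was therefore higher than in B-like cells in 13 of 16, 11 of 11, 12 of 14 and 13 of 14 samples. The nuclear-encoded subunits gave median ratios of 0.997 in monocyte-like, 0.914 in macrophage-like, 0.812 in neutrophil-like and 0.874 in cDC-like cells. Mitochondrial rRNA gave 0.968, 0.755, 0.892 and 0.803 in the same order, higher than in B-like cells in 7 of 16, 0 of 11, 2 of 14 and 1 of 14 samples.

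**Figure D5:**
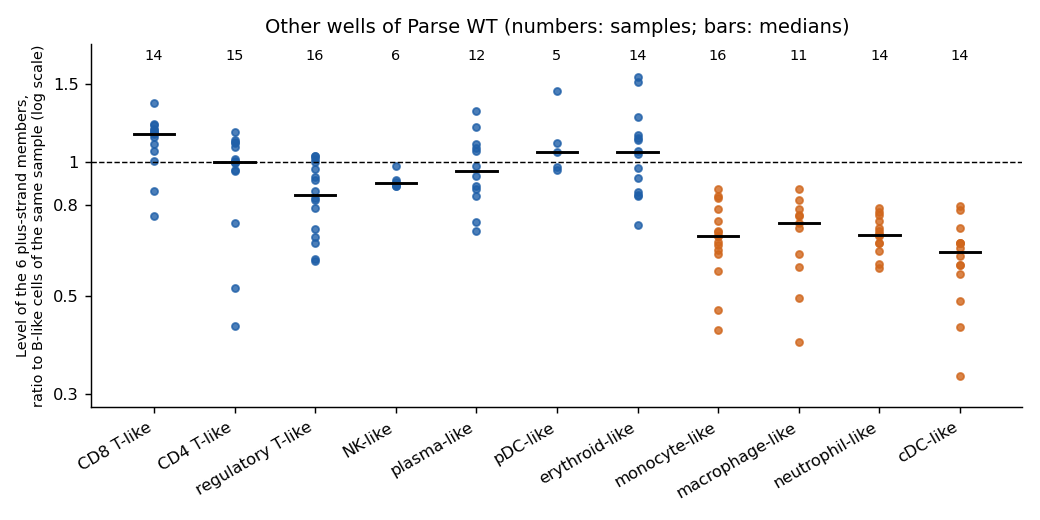
Level of the 6 plus-strand members in each class of the other wells of Parse WT, as a ratio to B-like cells of the same sample (log axis); points are samples, bars medians, and the numbers on top count the samples with at least 50 cells of the class. All monocyte-like, macrophage-like, neutrophil-like and cDC-like points (orange) lie below 1, and plasma-like points lie on both sides.

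The other classes of these wells lay on both sides of the B-like level. CD8 T-like cells had a median ratio of 1.16 (higher in 12 of 14 samples), CD4 T-like cells 1.00 (9 of 15), NK-like cells 0.898 (0 of 6), regulatory T-like cells 0.845 (4 of 16) and plasmacytoid dendritic (pDC)-like cells 1.05 (3 of 5). Erythroid-like cells, which lose their mitochondria as they mature, had a plus-strand ratio of 1.05 (8 of 14) but an mt-Nd6 ratio of 1.53, higher in 14 of 14 samples. Their nuclear-encoded subunits were at 1.4 times the B-like level and their UMIs outside rRNA per cell at 2.48 times. DP-R-like cells, found in 8 of these samples, had a median ratio of 0.576, higher in 2 of 8, with 0.404 times the UMIs outside rRNA per cell and an mt-Nd6 share above that of B-like cells in 8 of 8. They held a median of only 1.29 plus-strand UMIs per cell, so these values rest on few molecules. Rn18s-rs5 made up a median of 37.9% of their UMIs, against 14.9% in B-like cells. The study describes these samples as non-thymic, and whether the DP-R-like cells in them were thymocytes was not tested.

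The kits were set side by side without a test, since the kit, the mice and the run differ together and cannot be told apart. Over whole lobes the plus-strand sum was 2737 ± 521 CPM in WT (SD, n = 4) and 2183 ± 316 in Mini, with overlapping ranges. Of single members, mt-Nd2 had the largest ratio of the means, 1.46 (263 to 360 in WT, 196.5 to 238 in Mini), and mt-Nd4 the next, 1.44. How such gaps are spread over all genes was not examined. mt-Nd6 was at 26.4 ± 3.17 in WT and 30.7 ± 17.6 in Mini, with T-1-A, held in wells A1 to A3, the highest Mini lobe. The other 16 samples ranged from 1369 to 4777 CPM for the plus-strand sum.

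Likeness to the plus-strand sum was the correlation of log2 CPM over the sums per class and lobe, with levels centred within each lobe. Among 6428 genes measured well in both kits and ranked by the WT correlation alone, the genes most like it were Prmt3 (r = 0.908 over 36 WT points and 0.913 over 30 Mini points), Eef1a1 (0.891 and 0.947), Slc7a1 (0.883 and 0.845), Mthfd1 (0.882 and 0.947) and Ddx21 (0.881 and 0.753). Eef1a1 is a translation elongation factor and Mthfd1 an enzyme of folate metabolism. For mt-Nd6 they were Vars (0.876 and 0.731), AU020206 (0.867 and 0.599), Fam111a (0.848 and 0.773), ENSMUSG00000120992 (0.824 and 0.712) and Sfxn1 (0.814 and 0.679), none of which is in the first set. The points share lobes and libraries, so these correlations are descriptions.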

How the data were processed

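UMI counts per gene and cell were deposited by the authors as 1 matrix per kit, made with split-pipe on mm10 with the sublibraries combined; versions are not stated in any source read here. The submitters' notes also name Cell Ranger. Members, gene lists and tests were chosen with earlier results of these data known. Named genes were the 7 members, from among the 4 of each list with the smallest adjusted p in the contrast described, and the 5 nuclear genes whose pattern correlated best.

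Cells were filtered by the study's limits (500 to 25000 UMIs, up to 15% mitochondrial) and by at least 200 UMIs outside rRNA. No doublet caller was used, whereas the study removed called doublets. Clustering left out mitochondrial genes (leidenalg 0.10.2). Clusters led by immunoglobulin genes outside B-like and plasma-like classes stayed unnamed, a rule added after the clusters were seen. Counts of classes with at least 50 cells were summed per lobe and tested with edgeR 4.0.16 (quasi-likelihood, filterByExpr, TMM, lobe as block, library size outside 3 rRNA genes, Benjamini-Hochberg threshold 0.05). The same lobe gives every class, which is where the pairing comes from. In counts simulated for DN-like against DP-R-like sums of WT, the test recovered 60.8% of 97 genes changed 1.5 times. It recovered 88.2% of 93 genes changed 2 times and called 0.083% of unchanged genes. The simulation used the same gene proportions in every lobe and few changed genes, so it cannot show how the test behaves in the real sums. Alternatives were DESeq2 1.42.0, other filters and clustering, a depth window and left-out lobes. Sequences came from GENCODE transcripts of GRCm38. SDs cover lobes, which may share a mouse.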

Additional observations from a re-analysis of the deposited data

Results flagged for a closer look

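In groups of 4 lobes, 9 of 126 values examined had a lobe far from the other 3, and chance marks about 1 group in 20.

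In Mini, T-2-A was low for mt-Cytb in DN-like cells (543 CPM, others 706 to 726), for mt-Cytb in DP-P-like cells (447, others 593 to 605) and for mt-Nd1 in DP-P-like cells (223, others 316 to 318). T-1-A was high for the plus-strand sum in DP-S-like cells (2055, others 1302 to 1347) and in SP-CD4-like cells (2570, others 2008 to 2084). In its DP-S-like cells mt-Nd6 was at 50.7 CPM (others 6.44 to 8.25) and made up 2.41% of the members' UMIs (others 0.478% to 0.609%). In WT, tenxP_4 was high for mt-Nd6 in SP-CD4-like cells (35, others 18.9 to 21.5) and for its share in SP-CD8-like cells (1.02%, others 0.577% to 0.644%).

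Cells left out for more than 15% mitochondrial UMIs held more of the plus-strand members as CPM outside rRNA. The level was 11025 in 45 WT thymic cells (591 UMIs) against 2690 in kept cells, 8428 in 68 Mini cells (737 UMIs) against 2181, and 10373 in 3573 cells of the other wells (74415 UMIs) against 2545. The limit on mitochondrial UMIs itself selects such cells.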

How the results depend on the processing

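With another clustering resolution, 5 members in WT and 4 in Mini were called higher in DP-S-like cells, against 0, where 17.8% and 19.8% of all genes were higher, with mt-Nd4 turning to 0.19 in WT and mt-Nd5 to 0.43 in Mini (log2); that setting gave no SP-CD8-like class and so no value for it. With no replicate block, 4 members in DP-P-like and 3 in SP-CD4-like cells of WT passed, against 7 each, where 19.9% and 15.4% of all genes were higher, and in the other comparisons at least 5 of 7 stayed called where 7 were. The mt-Nd6 share was called in 0 of 5 classes with mt-Nd1 alone as the reference and in 0 to 0 without any 1 lobe. With 7 lobes the threshold is not reached after adjustment when only 1 class has the smallest p. Neutrophil-like cells of at most 10000 UMIs stood at -0.73 (log2) against B-like cells; the cause was not tested. Left-out lobes gave 5 to 7 called members in the SP-CD4-like and 6 to 7 in the SP-CD8-like comparisons of WT, where 14.9% to 18.5% and 14.3% to 17.4% of all genes were higher.

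The median of all genes moved by over 0.1 on the log2 scale with DESeq2 outside DP-P-like cells, by up to 0.34 in SP-CD8-like cells of Mini, where DESeq2 also tested more genes. Size factors of 1 moved it by less, 0.10 at most (DN-like, Mini), where the higher share of calls went from 57.5% to 68.2%. With DESeq2 it went from 48.2% to 58.4% in DP-S-like cells of Mini. With no filter beyond 1 UMI, where more genes were tested, the median fell by over 0.1 outside DP-P-like cells, by up to 0.26 in SP-CD8-like cells of Mini. The higher share in DP-S-like cells of WT then went from 53.2% to 18.5%. Without the limit on mitochondrial UMIs, which adds 45 WT thymic cells, the median fell by 0.15 in DN-like cells of WT and the higher share went from 57.8% to 42.8%, with 38.5% in DP-P-like, 29.1% in DP-S-like and 39.4% in both single-positive classes. In that setting mt-Nd4 in DP-P-like cells of WT lost its call (log2 fold change 0.01, adjusted p = 0.931), at 0.14 above the median of all genes as in the fit reported, and mt-Nd6 in SP-CD8-like cells of WT lost its call (0.34, adjusted p = 0.105), at 0.48 above that median in both. Genes called in DP-S-like against DP-R-like cells numbered 735 in WT and 4335 with the other resolution, and 827 and 4129 in Mini; in WT they numbered 1398 without the filter and 264 without the block. In the depth window 3932 genes were called in DN-like cells of WT against 6355, and 1999 against 5528 in Mini. Low counts limit mt-Nd6 most, with SEs up to 0.26 on the log2 scale.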
